A study of Mus musculus with 12 samples.

Results

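The genes described here are 8 parts of the cell's retinoic acid machinery: the binding proteins CRABP1 and CRABP2, the retinoic acid receptors RARA, RARB and RARG, the retinoid X receptors RXRA and RXRB, and the enzyme ALDH1A2. They were read by symbol from a table of 16425 genes, and all 8 passed the filter on low values, with 14440 genes tested. The set was chosen by its expression levels (CPM, read counts per gene scaled to a common library size) in the 6 libraries of that table, with the values of each replicate known, so the members' own differences between libraries are given as a description. Symbols are in capitals in the table and are written in mouse style from here on.

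The cells were wild-type mouse embryonic fibroblasts (MEFs), fibroblasts cultured from embryos, treated with 0.5 µM doxorubicin for 24 h. Doxorubicin damages DNA and activates the transcription factor p53. One group of 3 libraries came from cells infected with a non-targeting guide RNA (sgtom, the control guide), and the other group of 3 from cells infected with a guide RNA (sg10) against the p53 response element (p53RE) of the long noncoding RNA gene Pvt1. The series holds 12 samples in 4 groups, and its 6 untreated samples were not analysed here, so both groups compared are doxorubicin-treated and no effect of doxorubicin can be given. The design text calls the replicates biological, and does not say whether guide-bearing cells were a clone or how many cells carried an edit.

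Retinoic acid is made inside cells from vitamin A (retinol), which is first oxidised to retinal and then, by enzymes of the Aldh1a family, to the acid. Crabp proteins hold the acid in the cytoplasm, and Crabp2 is known to hand it to receptors in the nucleus. Each receptor of the Rar family binds DNA together with a receptor of the Rxr family, and the pair switches target genes according to whether the acid is bound. Cyp26 enzymes break the acid down. Rarb is itself a textbook target gene of the pathway, through a response element close to its start site.

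That element is the reason for printing sequence upstream of the genes. RefSeq promoter entries (build GRCm38.p6) held 13 start sites for 7 of the 8 members, with Crabp2 as the gene without an entry, and 250 bases upstream of each were searched on both strands. The search letters were direct repeats of a 6-base site (AGGTCA, its form GGGTCA, the form AGTTCA or the form GGTTCA) with a spacer of 5, 2 or 1 bases, called DR5, DR2 and DR1 here. The Rarb window, chr14:16575477-16575726 on the minus strand, held the only DR5 among the 13 windows. It lies 53 to 37 bases upstream of the start, at chr14:16575513-16575529. That start lies inside the annotated span of Rarb (chr14:16430839-16819156, minus strand), and the levels given here are of the whole gene. The DR5 is in capitals in the window and, with its spacer in lower case, on its own line.
Rarb element: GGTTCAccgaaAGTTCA
Rarb upstream window: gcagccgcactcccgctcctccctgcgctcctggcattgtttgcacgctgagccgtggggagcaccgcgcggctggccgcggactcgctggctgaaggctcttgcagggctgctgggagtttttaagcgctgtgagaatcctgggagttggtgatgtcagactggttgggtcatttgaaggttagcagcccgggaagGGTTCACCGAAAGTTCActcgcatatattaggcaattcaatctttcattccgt
A DR5 of these letters was rare, at 0.0883% of 32851 upstream windows of this length (29 windows). DR2 was in 0.174% and DR1 in 0.164% of all windows, and in none of the 13. A single 6-base site was common, at 38.6% of windows, and was found for Rara, Rarb, Rarg and Rxra. A match is a description of the letters and not of binding.

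For comparison, the windows of the other 2 genes that were low in the same libraries as Rarb are shown. The Crabp1 window (chr9:54764498-54764747, plus strand) held 5 GC boxes (GGGCGG or its reverse, CCGCCC), in capitals, a motif in 32.7% of all windows. The Aldh1a2 window (chr9:71215539-71215788, plus strand) held 0 GC boxes and 1 CCAAT motif (CCAAT or its reverse, ATTGG), in capitals, which is in 33.8% of all windows.
Crabp1 upstream window: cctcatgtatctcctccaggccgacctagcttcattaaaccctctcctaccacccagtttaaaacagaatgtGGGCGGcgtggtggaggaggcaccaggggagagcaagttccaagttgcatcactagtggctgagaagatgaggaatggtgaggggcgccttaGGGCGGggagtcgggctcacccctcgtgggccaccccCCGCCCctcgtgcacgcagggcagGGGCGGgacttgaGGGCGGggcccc
Aldh1a2 upstream window: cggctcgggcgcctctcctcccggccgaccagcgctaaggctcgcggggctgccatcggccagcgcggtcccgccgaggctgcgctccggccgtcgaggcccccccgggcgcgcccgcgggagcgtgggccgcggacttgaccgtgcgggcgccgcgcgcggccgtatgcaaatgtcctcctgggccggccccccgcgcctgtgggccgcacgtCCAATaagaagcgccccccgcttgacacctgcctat
Neither window held a 6-base site of the kind searched. Among these 3 windows, the DR5 was in that of Rarb alone, GC boxes in that of Crabp1 alone and the CCAAT motif in that of Aldh1a2 alone. G and C made up 58.0% of the Rarb window, 63.6% of that of Crabp1 and 77.6% of that of Aldh1a2, against a median of 52.4% over all windows.

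Facts of the whole table bear on how these values are read. Libraries held 50091418 to 66132317 reads in genes. Libraries with the same replicate number deviated together from their group means (correlation across genes of 0.869, 0.739 and 0.817 for replicates 1, 2 and 3, and 0.203 at most otherwise), so the numbers pair the libraries. The 2 libraries numbered 1 stood apart, and the members' ratios and guide effects are also given without them. The fibroblast markers listed (10 genes, led by Fn1 and Col1a1) summed to 37018 to 38811 CPM in all 6 libraries. The targeted gene was checked first: Pvt1 was at 16.4, 11.7 and 12.1 CPM with the control guide and 8.04, 5.93 and 5.40 CPM with the guide against its p53RE (replicates 1, 2 and 3), so the groups did not overlap. Its log2 fold change was -1.0 (95% interval -1.45 to -0.54, limma adjusted p = 1, and 0.00014 in the fit with replicate number as a block). Myc, the neighbouring gene that encodes a growth-promoting transcription factor, was at 28.7, 27.0 and 35.6 CPM against 43.5, 48.6 and 53.8 CPM, a log2 fold change of 0.67 (95% interval 0.37 to 0.98, limma adjusted p = 1, blocked 0.000549).

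Crabp1, the cellular retinoic acid-binding protein of many embryonic mesenchymal cells, spans chr9:54764748-54773110 (mm10, plus strand). It was at 4.76, 31.5 and 29.2 CPM in the control libraries 1, 2 and 3, and at 5.02, 31.3 and 27.2 CPM with the Pvt1 guide. Both libraries of replicate 1 were low and the other 4 lay close together, at either guide. The mean was 6.42 times higher in replicate 2 than in replicate 1 and 5.77 times higher in replicate 3. The highest library exceeded the lowest by 6.61 times, a larger ratio than that of 99.3% of tested genes, and by 1.16 times without replicate 1. These levels rested on 275 to 1976 reads, and the exact Poisson 95% intervals, which cover counting error only, were 4.21 to 5.36 CPM for control replicate 1 and 30.1 to 32.9 CPM for control replicate 2. In libraries of whole cultures, fewer Crabp1-expressing cells and less Crabp1 RNA per cell cannot be told apart.

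Crabp2, the binding protein that delivers the acid to the receptors, spans chr3:87948666-87953376 (plus strand). It was at 82.9, 116 and 102 CPM with the control guide and at 82.6, 104 and 91.2 CPM with the Pvt1 guide. Replicate 1 was again lowest at both guides, by a far smaller step than for Crabp1, with a highest-to-lowest ratio of 1.40 (larger than 61.8% of tested genes), and 1.27 without replicate 1. Per kb of exons, so that genes can be compared, Crabp2 was the most abundant member at 73.0 ± 9.98 CPM per kb (SD, n = 6 libraries). Crabp1 was at 26.8 ± 16.2 CPM per kb, with 5.94 and 6.26 in replicate 1 and 33.9 to 39.2 in replicates 2 and 3. Its place therefore depends on the replicate: it stood above Rxra (22.9 to 23.4 CPM per kb) in replicates 2 and 3, and below Rara (9.35 and 9.42) in replicate 1.

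**Figure D1:**
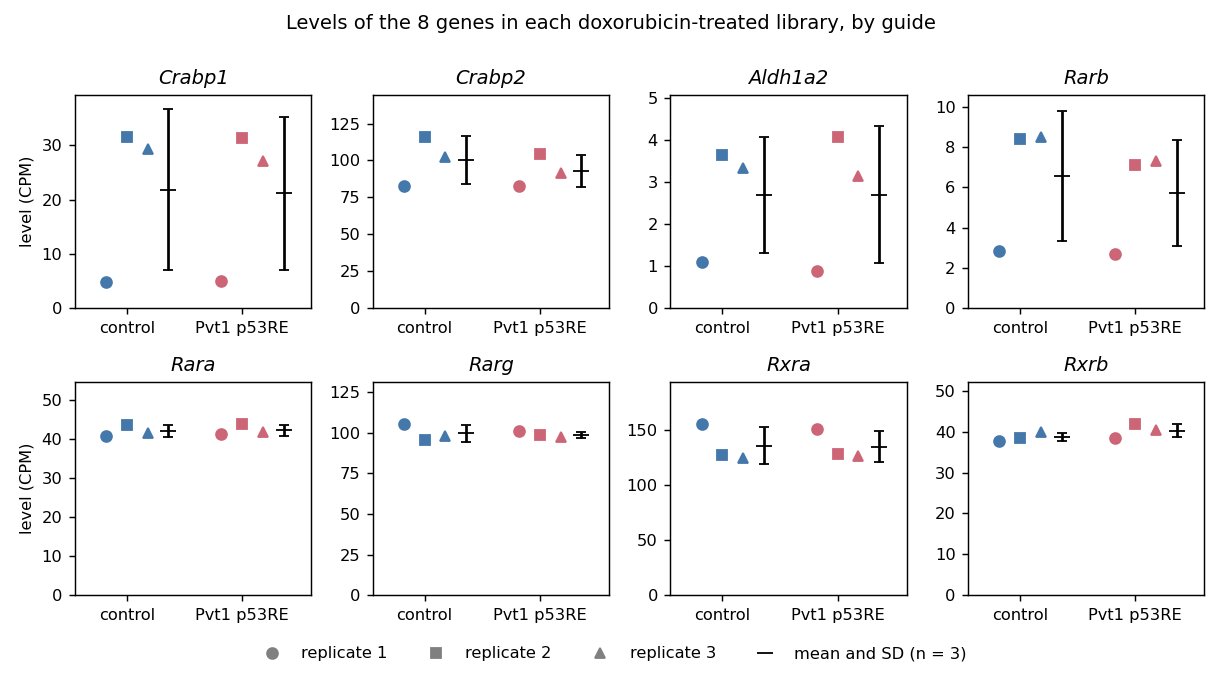
Level in CPM (vertical axes, each from 0) of each of the 8 genes in the 3 control-guide libraries (blue) and the 3 libraries with the guide against the Pvt1 p53RE (red). Point shapes give the replicate number and black bars the mean and SD of 3. The circles of replicate 1 lie far below the rest for Crabp1, Aldh1a2 and Rarb at both guides (Crabp1 4.76 and 5.02 CPM against 27.2 or more), while Rara, Rarg and Rxrb are nearly level.

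Among the receptors that are members, Rarb showed a step between replicate 1 and the rest in the same direction as that of Crabp1. Rarb, which spans chr14:16430839-16819156 (minus strand), was at 2.84, 8.39 and 8.49 CPM with the control guide and at 2.69, 7.13 and 7.33 CPM with the Pvt1 guide. Replicates 2 and 3 were 2.81 and 2.86 times higher than replicate 1, and the 4 libraries outside replicate 1 spanned a ratio of 1.19. The highest-to-lowest ratio of 3.16 was larger than that of 96.2% of tested genes. The values rest on 164 to 574 reads, and the exact Poisson 95% intervals were 2.42 to 3.31 CPM for control replicate 1 and 7.67 to 9.17 CPM for control replicate 2.

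Rarb's value is uncertain in 1 respect. In GENCODE M21, 34.1% of its exonic bases (1793 bases) overlap exons of Top2b, a DNA topoisomerase gene on the opposite strand, and the strand setting of the counting is not given in the sources used here. Top2b itself was level, at 107, 107 and 108 CPM with the control guide and 105, 114 and 108 CPM with the Pvt1 guide. Its highest-to-lowest ratio was 1.08, against 3.16 for Rarb.

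The other Rar receptors were close to constant. Rara, the broadly expressed retinoic acid receptor (chr11:98927818-98974942, plus strand), was at 40.8, 43.6 and 41.4 CPM with the control guide and at 41.1, 43.7 and 41.6 CPM with the Pvt1 guide. Its ratio of 1.07 was larger than that of only 2.87% of tested genes, and replicate 2 was slightly highest at both guides. Rarg, a receptor with roles in skin and skeletal development (chr15:102234938-102257517, minus strand), was at 105, 95.7 and 97.8 CPM against 101, 98.4 and 97.2 CPM. Replicate 1 was highest at both guides here, with a ratio of 1.10 (8.25% of genes had a smaller one).

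The summed level of these receptors hardly moved. Summed per kb of exons, the 3 Rar genes gave 33.6 to 34.6 CPM per kb in all 6 libraries. Rarg was the most abundant of them at 23.3 ± 0.791 CPM per kb (SD, n = 6), Rara had 9.63 ± 0.293 and Rarb 1.17 ± 0.508. Rarb made up 1.56% and 1.52% of the sum in replicate 1 and 3.93% to 4.73% in the other 4 libraries. The summed level was 34.6 and 33.6 CPM per kb in replicate 1 (control and Pvt1 guide) and 33.8 to 34.5 in the other libraries.

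Rxra, the common partner of Rar receptors (chr2:27676440-27762957, plus strand), went the other way. It was at 155, 128 and 125 CPM with the control guide and at 151, 128 and 126 CPM with the Pvt1 guide. Replicate 1 was highest at both guides, and the 4 other libraries agreed within a ratio of 1.02. Rxrb, the other widely expressed partner (chr17:34031812-34038399, plus strand), was at 37.8, 38.4 and 39.8 CPM against 38.5, 41.8 and 40.5 CPM, a ratio of 1.11 (10.2% of genes had a smaller one). Without replicate 1 the ratios were 1.06 for Rara, 1.03 for Rarg and 1.09 for Rxrb. Per kb, Rxra stood at 24.8 ± 2.51, next to Rarg at 23.3 ± 0.791, and Rxrb at 9.94 ± 0.381, next to Rara at 9.63 ± 0.293 (CPM per kb, SD, n = 6 libraries), and in both cases the neighbours differed by less than the SD of the more variable gene. At the low end, Aldh1a2 (1.19 ± 0.597) and Rarb (1.17 ± 0.508) did not differ beyond their spread either. Rxrg, which is no member, was a further partner at low level, with 0.658, 1.94 and 1.57 CPM against 0.438, 1.27 and 1.43 CPM. It had a step like that of Rarb, with replicates 2 and 3 at 2.93 and 2.73 times replicate 1. The highest-to-lowest ratio of Rxrg was 4.44, on 29 to 114 reads.

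Aldh1a2 is the retinal dehydrogenase that makes most retinoic acid in the early embryo (chr9:71215789-71296243, plus strand). It was at 1.11, 3.63 and 3.34 CPM with the control guide and at 0.892, 4.07 and 3.13 CPM with the Pvt1 guide. As for Crabp1 and Rarb, both libraries of replicate 1 were low, with replicates 2 and 3 at 3.85 and 3.24 times its mean. The highest-to-lowest ratio was 4.56 (larger than 98.3% of tested genes), and 1.30 without replicate 1. The gene is weakly expressed, at 59 to 228 reads per library, so the exact Poisson 95% intervals are wide: 0.853 to 1.41 CPM for control replicate 1 and 3.16 to 4.16 CPM for control replicate 2.

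The 2 related dehydrogenases catalyse the same reaction and were read beside it, after their values were seen. Aldh1a1 was at 18.1, 5.77 and 2.62 CPM with the control guide and at 8.70, 4.91 and 2.93 CPM with the Pvt1 guide, so replicate 1 was highest. Aldh1a3 was at 12.1, 15.1 and 22.0 CPM against 13.1, 11.1 and 20.6 CPM, with replicate 3 highest. Per kb of exons the 3 genes summed to 5.001 to 6.77 CPM per kb in the 6 libraries. Aldh1a2 made up 7.23% and 7.87% of that sum in replicate 1 and 21.5% to 34.6% elsewhere, while Aldh1a1 made up 54.0% and 35.3% in replicate 1 and 7.83% to 19.3% elsewhere. The make-up of the family thus differed between replicates more than its summed RNA level did.

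**Figure D2:**
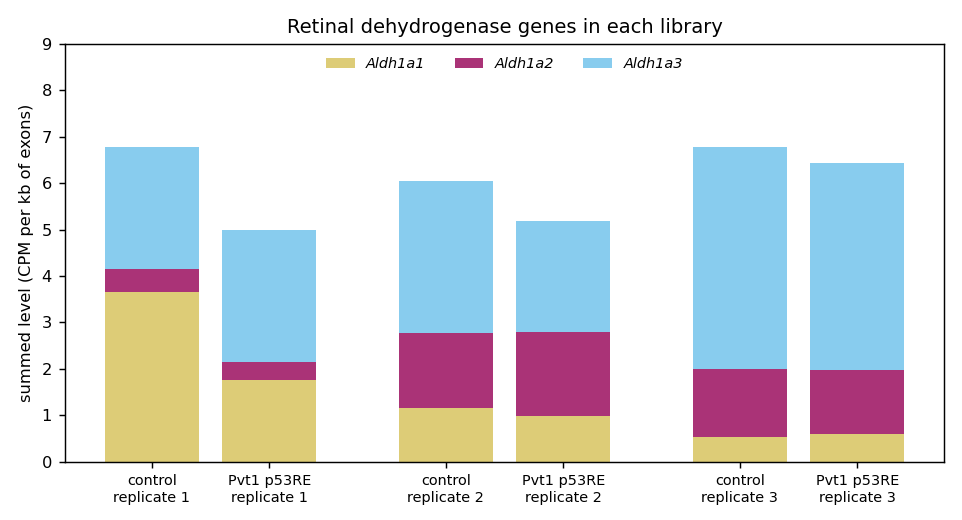
Summed level of the 3 retinal dehydrogenase genes (CPM per kb of exons, vertical axis from 0) in each library, ordered by replicate number, with each gene as a coloured part of the bar. Aldh1a2 is the smallest part in both replicate 1 libraries (7.23% and 7.87%) and Aldh1a1 is largest there in the control library (54.0%).

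The 8 genes differed in where replicate 1 lay. Both replicate 1 libraries lay below all 4 others for 5 of the 8 (Crabp1, Crabp2, Rara, Rarb and Aldh1a2), where 25.3% of all tested genes did so, and above them for 2 (Rarg and Rxra), where 25.7% did, with Rxrb as the gene of neither kind. For Rara the step was small, with 41.1 CPM as the highest replicate 1 value and 41.4 as the lowest other one. Replicate 1 was under 0.5 times every other library for 3 of the 8, Crabp1, Rarb and Aldh1a2, against 122 of all tested genes (0.845%). Since the members were chosen with these values known, nothing is read from the difference between these shares. Median highest-to-lowest ratios were 1.32 for the members and 1.29 for all tested genes.

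**Figure D3:**
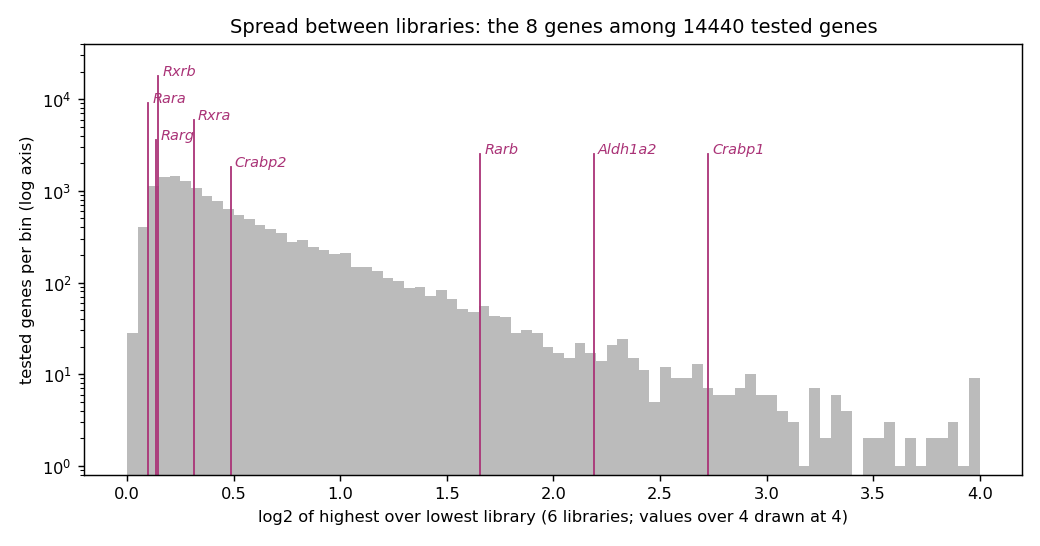
Histogram of the log2 ratio of the highest to the lowest of the 6 libraries for the 14440 tested genes (horizontal axis; number of genes per bin on a log vertical axis), with vertical lines at the 8 genes, whose heights carry no value. Rara, Rarg and Rxrb sit at the low edge (ratios of 1.07, 1.10 and 1.11) and Rarb, Aldh1a2 and Crabp1 in the upper tail (3.16, 4.56 and 6.61).

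By the F test of replicate number in limma, 5 of the 8 members differed between replicates (Crabp1, Crabp2, Rarb, Rxra and Aldh1a2), and so did 48.6% of all tested genes. This count describes genes picked for such values, and nothing is read from it. Without replicate 1, a comparison added after the values were seen, 1 of the 8 remained, Crabp2, which was at 116 and 104 CPM in replicate 2 and 102 and 91.2 CPM in replicate 3. The corresponding count over all genes fell from 7022 to 3068. Replicate number held a median of 98.4% of the members' variance over the 6 libraries, against 80.5% over all tested genes, and the guide 1.05% against 3.94%.

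Over the 6 libraries, log2 levels of Crabp1 correlated with those of Rarb at r = 0.99 and of Aldh1a2 at 0.99, and with those of Rxra at r = -0.99. These values describe 6 libraries in which the step between replicate 1 and the rest makes up most of the spread, and carry no test. Many genes share that step: 592 of 10398 other genes with a mean of at least 5 CPM (5.69%) had r above 0.95 with Crabp1, and 513 of 10399 (4.93%) with Aldh1a2. Closest to Crabp1 were Sphk1 (r = 0.9998), which encodes sphingosine kinase 1, 4930556M19Rik (r = 0.9985) and the splicing regulator gene Mbnl2 (r = 0.9984). Closest to Aldh1a2 were the potassium channel gene Kcnd1 (r = 0.9991), Tmtc4 (r = 0.9990) and the ubiquitin ligase gene Nedd4 (r = 0.9984).

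Sphk1 and Kcnd1 shared the order of the 6 libraries with Crabp1 and Aldh1a2 but not the size of the step. Sphk1 was at 14.4, 19.9 and 19.8 CPM with the control guide and 14.5, 19.9 and 19.5 CPM with the Pvt1 guide, a highest-to-lowest ratio of 1.38 where Crabp1 had 6.61. Kcnd1 was at 3.58, 6.53 and 6.28 CPM against 3.17, 7.22 and 6.04 CPM, a ratio of 2.27 where Aldh1a2 had 4.56.

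The comparison of guides asks whether the retinoid genes differed when the p53RE of Pvt1 was targeted in doxorubicin-treated cells. No member passed an adjusted p of 0.05 in limma (0 of 8, as for 0% of all tested genes), and all 8 had an adjusted p of 1. At an unadjusted p under 0.05, limma called 0 of the 8 and 50 genes in all (0.346%). edgeR on recovered reads called 0 of the 8 and 0% of all genes, and DESeq2 0 of the 8 and 1 gene (0.00693%). The 2 groups overlapped for all 8 members, while 3.61% of all tested genes had groups that did not overlap.

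With replicate number as a block, which removes the steps between replicates, intervals became narrow. The blocked fit in limma called 0 of the 8 members and 5 genes (0.0346%), edgeR with the block 0 and 5 genes (0.0346%), and DESeq2 with the block 0 and 6 genes (0.0416%). For Crabp1 the log2 fold change of -0.01 had a 95% interval of -2.26 to 2.24 without the block and -0.14 to 0.11 with it. Within pairs, the Pvt1-guide library was at 1.05, 0.994 and 0.930 times the control level of Crabp1. For Aldh1a2 the log2 fold change was -0.05, with an interval of -1.38 to 1.28 that narrowed to -0.29 to 0.19, and pair ratios of 0.805, 1.12 and 0.938. The replicate step was thus present at either guide for both genes, in near equal size for Crabp1.

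Crabp2 and Rarb were the 2 members lower with the Pvt1 guide in all 3 pairs, a pattern found in 14.4% of all tested genes. Crabp2 was at 0.997, 0.901 and 0.891 times its control level, a log2 fold change of -0.11 (95% interval -0.45 to 0.24, blocked -0.19 to -0.02). It was the 1 member of 8 with an unadjusted p under 0.05 in the blocked limma fit (adjusted p = 0.684), where 6.68% of all tested genes had one. Rarb was at 0.947, 0.849 and 0.863 times its control level, a log2 fold change of -0.16 (95% interval -1.40 to 1.07, blocked -0.35 to 0.02, blocked adjusted p = 0.748 in limma). Rara and Rxrb were the 2 members higher in all 3 pairs (14.4% of all tested genes).

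For the latter receptors the steps were small. Rara was at 1.01, 1.002 and 1.01 times its control level (log2 fold change 0.01, blocked 95% interval -0.08 to 0.09) and Rxrb at 1.02, 1.09 and 1.02 times (0.06, blocked -0.03 to 0.15). Without replicate 1, the blocked log2 fold changes were -0.06 for Crabp1, -0.16 for Crabp2, -0.21 for Rarb and 0.03 for Aldh1a2, and lay between 0.01 and 0.07 for the other 4 members, with 0 of 8 past the threshold. Over all libraries, Rarg and Rxra had log2 fold changes of -0.01 each, with blocked 95% intervals of -0.09 to 0.07 and -0.08 to 0.06. For comparison, the blocked intervals of Pvt1 (-1.15 to -0.84) and Myc (0.56 to 0.79) lay outside those of all 8 members. A p that misses the threshold does not show equal levels, and the intervals give the size of difference that these libraries allow. The authors' deposited table gave log2 fold changes of -0.04 for Crabp1, -0.11 for Crabp2, -0.20 for Rarb and 0.00 for Aldh1a2, with a false discovery rate of 1 for each.

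**Figure D4:**
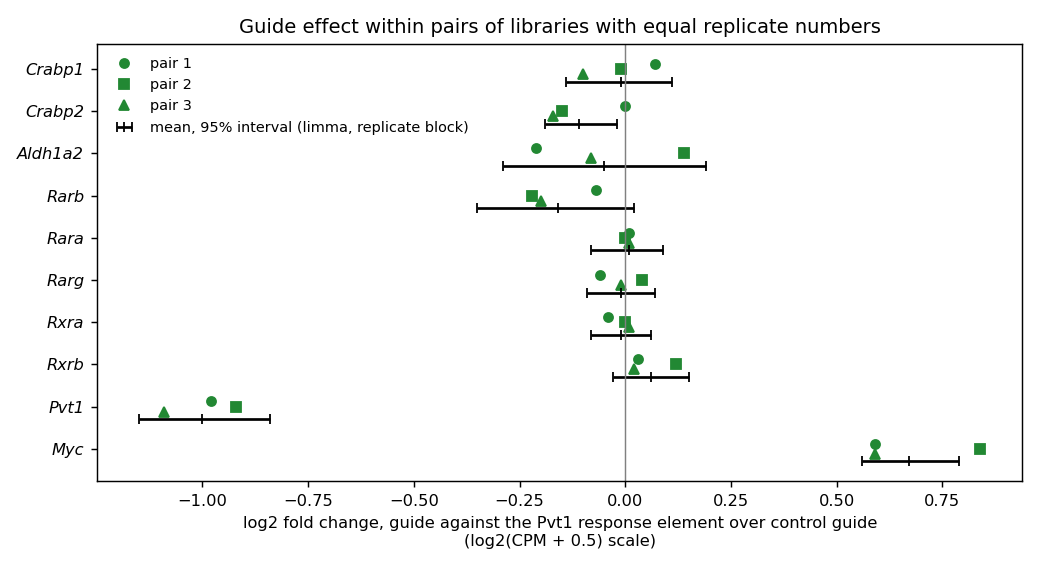
Log2 fold change on the log2(CPM + 0.5) scale, guide against the Pvt1 p53RE over control guide, in each pair of libraries with the same replicate number (green points) and as mean with 95% interval from the limma fit with replicate block (black), for the 8 genes and for Pvt1 and Myc. The means of the 8 genes lie between -0.16 (Rarb) and 0.06 (Rxrb), while Pvt1 lies at -1.0 and Myc at 0.67.

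The rest of the pathway was read from 6 lists of 84 genes, of which 69 were in the table and 62 passed the filter. None of the 62 passed an adjusted p of 0.05 for the guide in limma, with or without the block (0% and 0.0346% of all tested genes). At an unadjusted p under 0.05, 0 of the 62 were called in limma (0.346% of all) and 6 with the block (6.68% of all). Of the 62, 30 had a log2 fold change above 0 and 32 below, with a median of 0.00, and the median over all tested genes was also 0.00. For replicate number, 43 of the 62 (69.4%) passed the F test, where 48.6% of all tested genes did. The lists were chosen with earlier results of these data known, so nothing is read from the difference between these shares. Both replicate 1 libraries were lowest for 20 and highest for 14 of the 62 (25.3% and 25.7% of all tested genes). None was at under 0.5 times every other library, as Crabp1, Rarb and Aldh1a2 were. Rxrg came close, at 0.658 CPM at most in replicate 1 and 1.27 CPM at least elsewhere. The counts of each list below stand beside the same shares of all tested genes: 48.6% by the F test, 25.3% lowest and 25.7% highest.

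Genes that bring retinol into cells and store it were 6 tested genes, and 2 of them differed between replicates. Those with the highest CPM were Fabp5, a fatty acid-binding protein that also carries retinoic acid (36.5, 30.1 and 35.0 CPM against 40.1, 26.7 and 36.2 CPM), and Dgat1, an acyltransferase that esterifies retinol (18.01 to 20.7 CPM in all libraries). All 6 had log2 fold changes for the guide above 0, with a median of 0.04, and 0 passed.

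Of 15 tested genes for the oxidation or reduction of retinol and retinal, 9 differed between replicates by the F test. Counted over all 15, both replicate 1 libraries were lowest for 4 and highest for 4. Those with the highest CPM were Adh5, an alcohol dehydrogenase at 134 to 148 CPM in all libraries, and Rdh10, the main retinol dehydrogenase of the embryo. Rdh10 was at 54.6, 71.1 and 70.5 CPM with the control guide and 50.2, 65.4 and 66.4 CPM with the Pvt1 guide, lower in replicate 1. Among genes singled out after their values were seen, Dhrs9, a retinol dehydrogenase, was higher in replicate 1 (37.6, 11.8 and 11.4 CPM against 35.8, 9.80 and 10.1 CPM). Retsat, which reduces retinol to dihydroretinol, was lower there (36.7, 71.1 and 59.5 CPM against 36.4, 64.2 and 63.4 CPM). For the guide, 13 of the 15 had log2 fold changes below 0 (median -0.04), 0 passed, and Rdh10 and Dhrs9 were the 2 with an unadjusted p under 0.05 in the blocked fit (adjusted p = 0.653 and 0.678 in limma).

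The breakdown enzyme Cyp26b1 was the single tested gene of its kind. It was at 7.32, 14.9 and 21.7 CPM with the control guide and at 8.52, 14.5 and 23.3 CPM with the Pvt1 guide. Replicate 1 was lowest, as for Crabp1, Rarb and Aldh1a2, but replicate 3 exceeded replicate 2 here, and the log2 fold change for the guide was 0.09 (blocked adjusted p = 0.825 in limma).

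Of 13 tested partner receptors, 10 differed between replicates by the F test. Counted over all 13, whether or not they passed it, both replicate 1 libraries were lowest for 3 and highest for 7. The 2 with the highest mean CPM were Ppard (99.3 to 107 CPM) and Nr1h2 (71.1 to 82.4 CPM), which sense fatty acids and oxysterols. Pparg, the receptor that drives fat cell formation, was higher in replicate 1 (14.6, 4.50 and 6.67 CPM against 11.7, 4.39 and 5.90 CPM) and was singled out after its values were seen. For the guide, 9 of the 13 were below 0 (median log2 fold change -0.02). Rxrg was the 1 with an unadjusted p under 0.05 in the blocked limma fit, at a log2 fold change of -0.29 (adjusted p = 0.738).

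Of 14 coregulators, through which the receptors repress or activate genes, 10 differed between replicates. The corepressor gene Ncor1 was at 94.996, 106 and 110.5 CPM with the control guide and at 101, 110.4 and 119.9 CPM with the Pvt1 guide, and replicate 3 was highest at both guides. For the guide, 10 of the 14 lay above 0 (median log2 fold change 0.04). Ncor1 and the acetyltransferase gene Crebbp were among those with an unadjusted p under 0.05 in the blocked limma fit, with log2 fold changes of 0.09 and 0.17 and adjusted p of 0.684 and 0.586.

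Genes known to respond to retinoic acid were 13 tested genes, of which 11 differed between replicates by the F test. Counted over all 13, both replicate 1 libraries were lowest for 6 and highest for 1. Lamb1, a laminin chain gene, was at 491, 560.4 and 551 CPM against 488, 554 and 572 CPM, and Zfp703, a zinc finger gene, at 139.8 to 167 CPM in all libraries. The 1 that was highest in replicate 1 was Rarres1, named for its induction by retinoids (32.2, 13.2 and 12.3 CPM against 32.6, 14.8 and 10.8 CPM). The list did not share 1 order of libraries: Rarres1 was high where Rarb was low, and Lamb1 was lower there by a small step. For the guide, 7 lay above 0 and 6 below (median log2 fold change 0.01), and 0 had an unadjusted p under 0.05 in either limma fit.

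Among markers of other cell types, the macrophage and mesothelial sums differed between replicate 1 and the other libraries. The 10 macrophage markers, led by Lyz2 and Cd68, summed to 90.1 to 114 CPM in the other 4 libraries. In replicate 1 they summed to 183 CPM with the control guide and 287 CPM with the Pvt1 guide. Both libraries of replicate 1 were highest for 9 of the 10, as for 25.7% of all tested genes. The F test of replicate number was passed by 7 of the 10 (48.6% of all tested genes). Lyz2 and Cd68 did not pass it (adjusted p = 0.0515 and 0.1 in limma). The 6 mesothelial markers, from the lining of body cavities, summed to 29.8 to 32.6 CPM in replicate 1 and 52.4 to 83.0 CPM elsewhere. Both libraries of replicate 1 were lowest for 3 of the 4 tested ones, as for 25.3% of all tested genes. The exception was Upk3b (2.93, 8.80 and 4.35 CPM against 4.47, 8.74 and 5.13 CPM). Msln was at 3.17, 25.6 and 23.1 CPM against 4.77, 17.3 and 20.8 CPM and Upk1b at 23.2, 47.4 and 23.9 CPM against 22.9, 44.1 and 28.6 CPM, so replicate 3 of Upk1b lay near replicate 1, unlike replicate 3 of Crabp1, Rarb and Aldh1a2. Wt1, a defining marker, was at 0.0907 to 0.466 CPM in all libraries. Within the fibroblast list, Thy1 was lower in replicate 1 (190.4, 429 and 409 CPM against 222, 391 and 371 CPM) and the proteoglycan gene Lum higher (20.6, 6.82 and 5.35 CPM against 22.7, 8.27 and 4.21 CPM). The part of other cells in the members' levels was not tested.

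The sums of the other marker lists overlapped between replicate 1 and the other libraries. Epithelial markers (6 of 7 listed, led by Krt19) summed to 90.7 to 99.99 CPM in replicate 1 and 54.8 to 96.3 CPM elsewhere, with Epcam at 0.332 to 0.605 CPM. Endothelial markers (3 of 6, led by Kdr) summed to 68.9 to 72.7 and 49.2 to 69.6 CPM, with Pecam1 at 0.208 to 0.605 CPM. Muscle markers (2 of 6, led by Des) summed to 34.5 to 36.1 and 28.7 to 48.3 CPM. Neural markers (5 of 6, led by Nes and Tubb3) summed to 210.4 to 223 and 202 to 261 CPM.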

How the data were processed

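RNA was sequenced from polyadenylated, strand-specific TruSeq libraries, per the labels' protocols. The submitters' processing notes name the build mm10 and, without roles or a strand setting, edgeR 3.22.3, HTSeq 0.6.1, StringTie 1.2.4 and TopHat2 2.0.14. The deposited values used are CPM, made by the authors with edgeR, per the file headers; they summed to 989489 to 1011369 per library. The authors' log2 fold changes, average log2 CPM, p-values and false discovery rates were deposited in the same table. The members, lists and tests were chosen with earlier results of these data known.

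The 2 entries of reads in no gene were removed (ambiguous, 0.543% to 1.583% of reads; outside genes, 8.059% to 8.943%). CPM were divided by the worth of 1 read, and 100% of values came out whole within 0.05 reads. In GENCODE M21, 15867 of the 16425 symbols were found, and exon unions gave lengths. The 6 per-sample columns of pseudo-counts were not used.

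Tests were limma 3.58.1 (R 4.3.3) on log2(CPM + 0.5), using its trended and robust empirical Bayes step, for genes that reached 0.5 CPM in 3 or more libraries, with Benjamini-Hochberg adjustment over all tested genes and a threshold of 0.05. Fold changes are Pvt1 guide over control guide and are understated for low genes. The blocked fit adds replicate number, because equal numbers pair the libraries (4 residual degrees of freedom without and 2 with it). Replicate number was tested by limma's F test in that fit. edgeR 4.0.16 quasi-likelihood tests and DESeq2 1.42.0 used the recovered reads. Also tried were pseudocounts of 0.1 and 1, the filter left out or raised to a mean of 5 CPM, centring on medians, quantile normalization, a stricter threshold of 0.01, limma without trend and libraries left out. Named genes are Pvt1, Myc, the members, list genes past the threshold, the 2 genes of each list with the highest mean CPM and the 3 genes most like Crabp1 and like Aldh1a2, the 2 members with the largest ratio. Other list genes named were chosen after their values were seen. An item that this rule names is not reported here.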

Additional observations from a re-analysis of the deposited data

How the results depend on the processing

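Under every alternative run, each member's fold change shifted by less than the SD of its log2 level over the 3 control-guide libraries. This limit was wide. Leaving 1 of 3 control-guide libraries out cannot shift that group's mean by as much as its SD. By this limit those runs are therefore no test of stability. Runs that left out a Pvt1-guide library were held to the same control-guide limit, which does not fix their outcome. For Crabp1, Rarb and Aldh1a2 the spread is mostly the step between replicate 1 and the rest. A member's value changed sign in 19 of 215 comparisons. Many of these could not change it: the stricter threshold, limma without trend, the changed filters and the limma block alone leave a fold change as it is. That share is therefore no measure of stability. Ranges were -0.86 to 0.79 for Crabp1, -0.64 to 0.26 for Rarb, -0.48 to 0.47 for Aldh1a2 and -0.24 to 0.00 for Crabp2. The ends of these ranges came from leaving 1 library out of the fit without the block, which unbalances the replicates. With the replicate block and a replicate number left out, Crabp1 was at -0.06 to 0.03. Over all these fits, by limma, edgeR or DESeq2, the lowest adjusted p for a member was 0.351. Aldh1a2 has no value under a mean of at least 5 CPM, which it does not reach. The count of all genes past the threshold for the guide, 0 in the limma fit, was 1 with DESeq2. It was 5 with the replicate block, and with that block 6 by DESeq2, 5 by edgeR, 4 with median centring, 5 with quantile normalization, 5 with a pseudocount of 0.1, 4 with a pseudocount of 1 and 0 without trend. With the replicate block and replicate 1, 2 or 3 left out it was 8, 160 and 9. That count was thus highest without replicate 2, where 1 retinoid pathway gene passed, Crebbp (log2 fold change 0.21, adjusted p = 0.0236 in limma). Such fits rest on fewer libraries, and why their counts differed was not tested. The block changed no call of a member. Counts of genes that differed between replicate numbers were 7022, 4328 without trend, 4662 at a threshold of 0.01, and 3068 to 7027 with 1 replicate left out, an alternative added after the values were seen. For the members these counts were 5, and 1 to 5 with 1 replicate left out, the lowest being without replicate 1. The causes were not tested. Aldh1a2 rests on 59 to 228 reads per library, which limits what could be detected.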

Other observations

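The DR5 letters found upstream of Rarb were also upstream of 5 other tested genes, which were looked up after the result for Rarb was seen. The 6 genes did not share 1 order of libraries. Ppbp, a platelet chemokine gene (1.78 to 22.0 CPM), and Prokr2, a prokineticin receptor gene (0.294 to 0.985 CPM), had both replicate 1 libraries below all others, as Rarb did. Blvrb, a biliverdin reductase gene (15.0 to 24.1 CPM), and Syndig1 (4.89 to 8.03 CPM) had them above all others. Cfap45 (0.797 to 1.54 CPM) had neither order. Both orders are common: 25.3% of all tested genes had both replicate 1 libraries lowest and 25.7% had them highest. Prokr2 lies near the filter limit of 0.5 CPM.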
